A study of Mus musculus with 6 samples.

Results

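The genes described here encode 9 mouse enzymes that lengthen or desaturate long fatty acids: the fatty acid desaturases Fads1, Fads2, Fads3 and Fads6 and the elongases Elovl1, Elovl2, Elovl3, Elovl5 and Elovl7. They were taken by symbol from the 55536 genes counted in each library, and Elovl6 was left to de novo lipogenesis and not counted among them. All 9 passed the filter on low counts. Their levels were compared between livers of WT mice and of mice that lack CREBH (CREBH-KO). CREBH is the product of Creb3l3, a transcription factor of liver and gut that is released from the endoplasmic reticulum by proteolysis. The mice of both groups had been fasted for 14 h, and each group has 3 libraries of total liver RNA. The sources used here do not name the strain, age or sex of the mice, the deleted exons or whether other tissues also lack the gene. Samples are described as independent, with no statement that each is 1 mouse, so p-values measure the spread between these samples. For CREBH-KO 2 and CREBH-KO 3 the labels report the loss of a file of first reads.

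Mammals cannot make linoleic and alpha-linolenic acid. The liver takes both from the diet and converts them by alternating desaturation and elongation. FADS2 makes the first desaturation, ELOVL5 lengthens the product, and FADS1 makes the second desaturation, which yields arachidonic and eicosapentaenoic acid. ELOVL2 lengthens these further, and a later round through FADS2 and peroxisomal chain shortening ends in docosahexaenoic acid. In liver these genes are known as targets of SREBP-1, the lipogenic transcription factor encoded by Srebf1, and of the fatty acid receptor PPAR-alpha. The other members work elsewhere: FADS3 desaturates sphingoid bases, ELOVL1, ELOVL3 and ELOVL7 lengthen saturated and monounsaturated chains, and FADS6 is little studied.

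The libraries held 28106243 to 39288819 reads counted in genes. Creb3l3 was at 467, 496 and 495 CPM (counts scaled to 1e6 reads in genes) in WT 1, 2 and 3 and at 57.4, 45.0 and 46.4 CPM in CREBH-KO 1, 2 and 3, so every CREBH-KO library was far below every WT library. The CREBH-KO libraries still held 1962, 1332 and 1517 Creb3l3 reads, and whether these lie outside the deleted part was not tested. WT and CREBH-KO libraries fell apart along the first principal component (48% of variance). None of 7 hepatocyte markers passed the test, and their summed level was 62285 to 75988 CPM in WT and 71399 to 76920 CPM in CREBH-KO. In bulk RNA, fewer cells of a type and less RNA per cell cannot be told apart.

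The start regions of Elovl5, Elovl2 and Fads3 are shown because these genes fell in the results that follow and a window lies upstream of their starts. RefSeq windows from 250 bases before to 50 after the start were at hand for 7 of the 9 members (GRCm38.p6). Fads1 and Elovl3 had none. The stretches lie upstream of both the RefSeq and the GENCODE start, at chr9:77917115-77917363 (plus strand) for Elovl5, chr13:41220406-41220653 (minus strand) for Elovl2 and chr19:10041298-10041547 (plus strand) for Fads3. They are written 5′ to 3′, with capitals for every match to the motifs searched.
Elovl5: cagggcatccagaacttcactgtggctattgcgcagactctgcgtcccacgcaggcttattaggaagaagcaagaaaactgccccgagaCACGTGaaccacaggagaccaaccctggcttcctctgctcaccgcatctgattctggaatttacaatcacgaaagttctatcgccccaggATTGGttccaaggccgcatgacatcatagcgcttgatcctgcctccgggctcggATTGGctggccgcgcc
Elovl2: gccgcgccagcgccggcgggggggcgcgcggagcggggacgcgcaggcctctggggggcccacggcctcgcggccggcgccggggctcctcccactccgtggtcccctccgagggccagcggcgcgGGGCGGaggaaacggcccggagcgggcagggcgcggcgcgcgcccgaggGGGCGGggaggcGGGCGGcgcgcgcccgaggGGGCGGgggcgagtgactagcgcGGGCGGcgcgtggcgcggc
Fads3: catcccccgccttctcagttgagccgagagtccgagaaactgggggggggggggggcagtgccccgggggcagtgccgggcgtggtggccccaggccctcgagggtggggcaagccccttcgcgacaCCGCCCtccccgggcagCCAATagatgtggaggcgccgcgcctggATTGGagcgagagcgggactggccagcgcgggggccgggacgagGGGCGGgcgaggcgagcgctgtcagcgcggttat

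The motifs searched, on both strands of the whole 300-base windows, were TCACNCCAC (sterol regulatory element core), TGACGTCA (cAMP response element), TGACG (its 5-base part), CCAAT (NF-Y box), GGGCGG (GC box), CACGTG (E-box) and AGGTCA (nuclear receptor half-site). A match to TGACGTCA always holds TGACG on both strands. Of 32851 windows of all genes, 1.24%, 1.79%, 20.8%, 37.4%, 35.7%, 7.15% and 16.3% held these letters, in that order. The Elovl5 window held the full TGACGTCA, from base 4 after the RefSeq start, and the 30 bases around it (chr9:77917357-77917386, plus strand) are shown with the motif in capitals.
Elovl5 start: ccgcgccattgTGACGTCAcggtcagccca
No other member's window held it. The Elovl5 window also held CACGTG and 2 inverted CCAAT boxes. The main Elovl2 window, 87.1% G and C over the stretch shown, held 5 GC boxes and no other motif of the list. The Fads3 window held 2 CCAAT boxes, in opposite directions, and 2 GC boxes. Genes that did not pass the test held such letters too: a CCAAT box and 5 GC boxes in the first Elovl1 window, 2 GC boxes and 1 AGGTCA in the second, 3 GC boxes and 2 TGACG in Elovl7, and 1 GC box and 2 AGGTCA in Fads6. The RefSeq start of Fads2 lies 243 bases inside the gene as GENCODE draws it, so its window is mostly transcribed sequence and is not shown; it held 1 GC box. The RefSeq starts of the second Elovl1 window and of Fads6 likewise lie 1608 and 101 bases inside those genes. Of the Fads6 matches, the GC box and 1 AGGTCA lie inside the gene as GENCODE draws it. TCACNCCAC was in none of the members' windows. Such matches are letters in a short window and were not tested as binding sites.

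The 4 enzymes of the polyunsaturated pathway all fell in CREBH-KO liver, Fads2 most steeply. Fads3 fell too, and Fads6, Elovl1, Elovl3 and Elovl7 did not pass the test. In all, 5 of the 9 members fell and none rose at a Benjamini-Hochberg adjusted p under 0.05 in edgeR's quasi-likelihood test. Over all 15589 genes tested, 10.4% were called in either direction, 6.46% lower and 3.91% higher. With library size alone in place of TMM scaling, higher genes made up 52.8% of the calls in place of 37.7%, and the members' calls were 5 lower and none higher as before. In 6 members every CREBH-KO library lay below every WT library, which held for 15.7% of all genes. Each of the 5 fell more than 2-fold, against 1.76% of all genes. The median log2 fold change, CREBH-KO minus WT, was -1.22 over the members and 0.02 over all genes tested. With CREBH-KO 2 and 3 both left out, 4 of the 9 still passed, all lower.

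**Figure D1:**
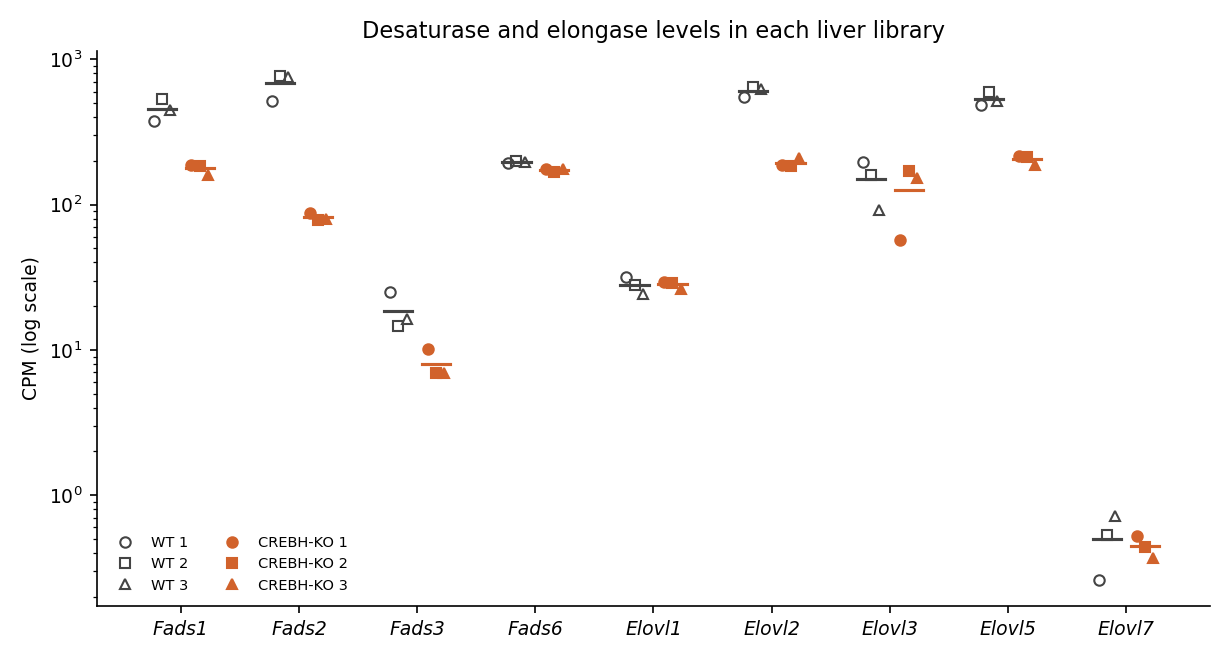
Levels of the 9 genes in CPM on a log axis, with 1 point per library (open grey, WT; filled orange, CREBH-KO; the shape gives the replicate) and a bar at the mean of 3. Fads2 drops from 519 to 769 CPM in WT to 78.5 to 87.2 CPM in CREBH-KO, while the points of Elovl1, Elovl3 and Elovl7 mix between genotypes.

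Fads2 (ENSMUSG00000024665) lies on the minus strand of chromosome 19 at 10062765-10101746 (GRCm38). It was at 519, 769 and 761 CPM in WT 1, 2 and 3 and at 87.2, 78.5 and 79.3 CPM in CREBH-KO 1, 2 and 3. The lowest WT library stood far above the highest CREBH-KO library, and the CREBH-KO libraries lay closer together than the WT ones. The mean went from 683 ± 142 to 81.7 ± 4.79 CPM (SD, n = 3 each), 8.36-fold lower. The log2 fold change was -3.06 ± 0.15 (SE), with a 95% interval of -3.41 to -2.71 and an edgeR adjusted p of 1.64e-05. By p-value Fads2 ranked 6 and by size of change 58 among the 15589 genes. In each leave-one-out fit its fold change stayed between -3.24 and -2.97.

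Fads1 (ENSMUSG00000010663), 1 step later in the pathway, lies on the plus strand of chromosome 19 at 10182888-10196877. It was at 378, 535 and 448 CPM in WT and at 188, 184 and 161 CPM in CREBH-KO, with no overlap. Its mean fell from 454 ± 78.5 to 178 ± 14.5 CPM (SD, n = 3), 2.55-fold, with a log2 fold change of -1.35 ± 0.13 (SE, edgeR adjusted p = 4.80e-04). This fall was smaller than that of Fads2, and the within-library ratio, which needs no scaling between libraries, shows by how much.

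Per exonic length, Fads2 was 2.00, 2.10 and 2.48 times Fads1 in WT 1, 2 and 3. In CREBH-KO 1, 2 and 3 it was 0.677, 0.622 and 0.719 times Fads1. So Fads2 was the higher of the pair in every WT library and the lower in every CREBH-KO library. The log2 ratio of their counts went from 0.58 ± 0.16 to -1.12 ± 0.10 (SD, n = 3), a change of -1.70 (exact two-sided permutation test, p = 0.1, the smallest p that 3 against 3 allows). Leaving out 1 library moved this change to between -1.77 and -1.61.

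**Figure D2:**
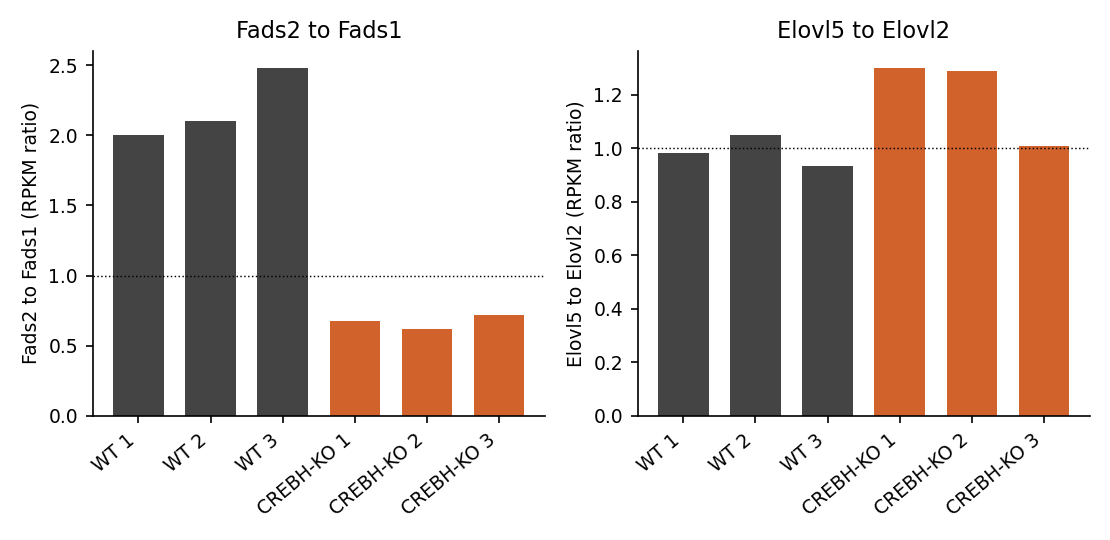
Ratio of per-length levels (RPKM) within each library, Fads2 to Fads1 on the left and Elovl5 to Elovl2 on the right, with 1 bar per library (grey, WT; orange, CREBH-KO) and a dotted line at equal levels. The Fads2 to Fads1 bars stand at 2.00 to 2.48 in WT and 0.622 to 0.719 in CREBH-KO, and the Elovl5 to Elovl2 bars overlap between genotypes.

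Elovl2 (ENSMUSG00000021364), on the minus strand of chromosome 13 at 41182381-41220405, was at 554, 643 and 624 CPM in WT and at 187, 186 and 210 CPM in CREBH-KO. Its groups did not overlap, and both were tight. The mean fell from 607 ± 46.9 to 194 ± 13.8 CPM (SD, n = 3), 3.12-fold, with a log2 fold change of -1.64 ± 0.09 (SE, edgeR adjusted p = 3.04e-05).

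Elovl5 (ENSMUSG00000032349), on the plus strand of chromosome 9 at 77917364-77984519, was at 483, 601 and 518 CPM in WT and at 216, 214 and 189 CPM in CREBH-KO. Again every CREBH-KO library was below every WT library. The mean fell from 534 ± 60.6 to 206 ± 15 CPM (SD, n = 3), 2.59-fold, with a log2 fold change of -1.37 ± 0.10 (SE, edgeR adjusted p = 1.40e-04).

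The elongases of the pathway changed by more nearly equal amounts than the desaturases did. Per length, Elovl5 was 0.983, 1.05 and 0.935 times Elovl2 in WT and 1.30, 1.29 and 1.01 times Elovl2 in CREBH-KO. The log2 count ratio differed by 0.27 between genotypes (-0.19 ± 0.09 in WT, 0.09 ± 0.21 in CREBH-KO; SD, n = 3; exact two-sided permutation test, p = 0.2). WT 2 and CREBH-KO 3 overlapped, so the data do not separate the falls of these elongases.

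Fads3 (ENSMUSG00000024664), next to Fads2 on the plus strand of chromosome 19 at 10041569-10060110, was at a far lower level. It was at 24.9, 14.6 and 16.4 CPM in WT and at 10.2, 6.93 and 6.92 CPM in CREBH-KO. WT 1 and CREBH-KO 1 were each the highest of their group, and the groups did not overlap. The mean fell from 18.7 ± 5.51 to 8.02 ± 1.90 CPM (SD, n = 3), 2.33-fold, with a log2 fold change of -1.22 ± 0.23 (SE, edgeR adjusted p = 0.0113). The log2 fold change was -1.12 without CREBH-KO 2 and also without CREBH-KO 3, with the call narrowly lost (edgeR adjusted p = 0.0515 and 0.0510). Without both it was -0.89 (edgeR adjusted p = 0.254).

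Fads6 (ENSMUSG00000044788), on the minus strand of chromosome 11 at 115279622-115297663, was the member that varied least within genotypes for its level. It was at 195, 200 and 197 CPM in WT and at 175, 169 and 177 CPM in CREBH-KO. The groups did not overlap, as was the case for 30.6% of all tested genes, but the step was small. Its log2 fold change was -0.18 ± 0.07 (SE), with a 95% interval of -0.34 to -0.03 and an edgeR adjusted p of 0.137.

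Elovl1 (ENSMUSG00000006390), on the plus strand of chromosome 4 at 118428093-118432953, supplies very long chains to sphingolipids. It was at 32.0, 27.9 and 24.3 CPM in WT and at 29.5, 29.1 and 26.2 CPM in CREBH-KO, and the groups overlapped. The log2 fold change was 0.01 ± 0.11 (SE, edgeR adjusted p = 0.970), with a 95% interval of -0.25 to 0.26, which leaves out changes of the size seen in the 5 fallers.

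Elovl3 (ENSMUSG00000038754), on the plus strand of chromosome 19 at 46131897-46135694, varied most within genotypes among the well-expressed members. It was at 196, 161 and 91.3 CPM in WT 1, 2 and 3 and at 57.3, 170 and 152 CPM in CREBH-KO 1, 2 and 3. CREBH-KO 1 stood below every other library, and CREBH-KO 2 and 3 lay within the WT range. The log2 fold change of -0.24 ± 0.38 (SE, edgeR adjusted p = 0.744) had a 95% interval of -1.09 to 0.61, which includes a 2-fold fall. Without CREBH-KO 1 the direction turned (0.11, edgeR adjusted p = 0.842), and with CREBH-KO 1 alone against WT, which assumes that it varies as the WT libraries do, it was -1.41 (edgeR adjusted p = 0.150).

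Elovl3 is known in mouse liver for a daily rhythm and for higher expression in males. Of 15 clock genes, 9 fell and 2 rose, with a median log2 fold change of -0.79. Over all tested genes, 6.46% were called lower and 3.91% higher. The clock output gene Dbp was at 52.2, 115 and 144 CPM in WT and at 8.08, 3.92 and 5.97 CPM in CREBH-KO, and Per3 at 16.2, 32.6 and 44.6 CPM in WT and 5.50, 4.83 and 4.31 CPM in CREBH-KO. Per2 fell by 1.59 on the log2 scale (edgeR adjusted p = 0.00632), and Arntl rose by 1.71 (0.0206). The Arntl call ended in edgeR's robust fit and without WT 2, CREBH-KO 2 or CREBH-KO 3, that of Cry2 when any of those 3 was left out, and that of Npas2, the other riser, without any 1 library. With CREBH-KO 2 and 3 both left out, the 11 calls of the clock list came down to 1, that of Dbp. Of 12 male-biased liver genes tested, 6 fell and 1 rose, and of 10 female-biased genes 1 fell and 1 rose. The calls of the female-biased list are too few to be set apart from the share over all genes. Mup7, a major urinary protein gene of the male list with near-identical relatives, fell from 693 ± 167 to 83.5 ± 61.3 CPM (SD, n = 3, edgeR adjusted p = 0.00572). The steroid hydroxylase Cyp7b1 (-1.61) and the steroid dehydrogenase Hsd3b5 (-1.48) fell, and the antitrypsin gene Serpina1e, which also has near-identical copies, rose (1.62), with edgeR adjusted p = 0.00754, 0.0338 and 4.74e-04. Mup7 and Cyp7b1 lost their calls in edgeR's robust fit (0.0620 and 0.0565), and Hsd3b5 lost it without WT 1, WT 2 or CREBH-KO 3. On the female-biased side, with a median of -0.24 against -0.76 in the male-biased list, the cytochrome P450 gene Cyp2b9 rose from 0.0878 ± 0.0221 to 2.29 ± 1.31 CPM (SD, n = 3, edgeR adjusted p = 0.00235) and Atp6v0d2, a proton pump subunit gene, fell by 1.85 on the log2 scale (0.0254; call lost without WT 2, WT 3 or CREBH-KO 3). The part of any of these lists in the spread of Elovl3, or in the falls of the members that fell, was not tested.

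Elovl7 (ENSMUSG00000021696), on the plus strand of chromosome 13 at 108214404-108285683, was close to the detection limit. It had 10, 17 and 22 counts in WT and 18, 13 and 12 counts in CREBH-KO, that is 0.259 to 0.715 CPM and 0.367 to 0.527 CPM. The groups overlapped. Its log2 fold change was -0.16 ± 0.47 (SE, edgeR adjusted p = 0.872). The 95% interval of -1.21 to 0.89 includes a 2-fold fall, so a fall of that size is not excluded.

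**Figure D3:**
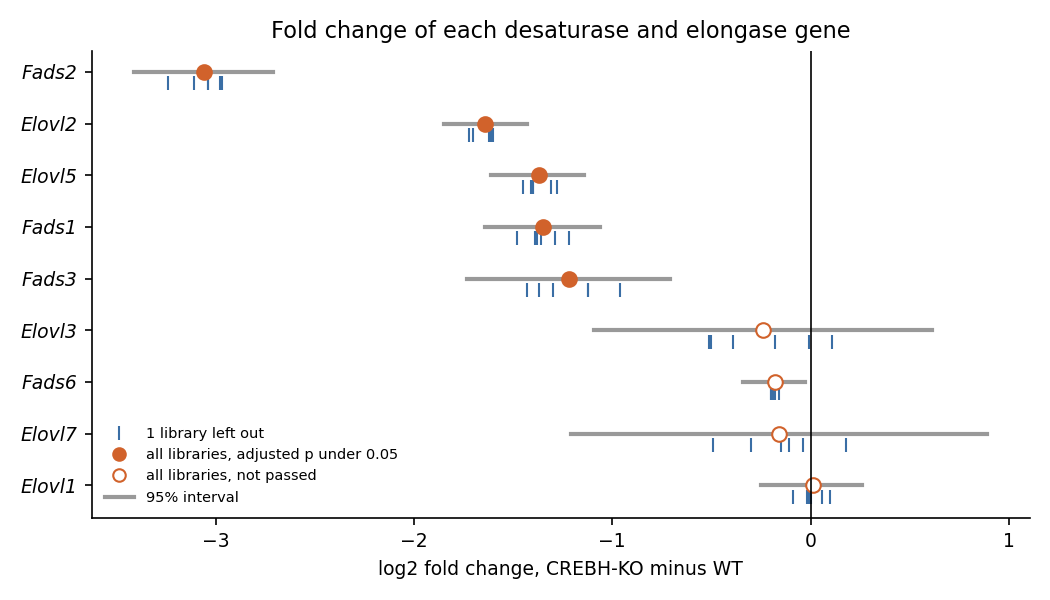
Log2 fold change of each gene (CREBH-KO minus WT; circles, filled where the adjusted p was under 0.05) with its 95% interval (grey line) and the values with 1 library left out (blue ticks). The intervals of the 5 fallers end at or below -0.71, and the ticks of Elovl1, Elovl3 and Elovl7 lie on both sides of 0.

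The order of the genes by per-length level differed between genotypes. Levels here are RPKM, the CPM divided by the kilobases of exon. In WT the order was Fads2 (207 RPKM), Elovl2 (153), Elovl5 (152), Fads1 (94.3), Elovl3 (75.6), Fads6 (29.6), Elovl1 (10.3), Fads3 (4.92) and Elovl7 (0.125), as means of 3 libraries. The ranges of Fads2, Elovl2 and Elovl5 overlapped each other, as did those of Fads1 and Elovl3. Within each WT library Fads2 was nonetheless the highest. The order of Elovl2 and Elovl5, and that of Fads1 and Elovl3, differed between WT libraries, so those pairs are not ordered beyond their spread. In CREBH-KO the order was Elovl3 (64.1 RPKM), Elovl5 (58.6), Elovl2 (49.0), Fads1 (37.0), Fads6 (26.1), Fads2 (24.8), Elovl1 (10.4), Fads3 (2.12) and Elovl7 (0.111). There the range of Elovl3, 29 to 86.3 RPKM, spanned those of Elovl5, Elovl2 and Fads1, so its first place is not set apart from them. The ranges of Fads6 and Fads2 overlapped too. Fads2 went from the first place to the sixth, level with Fads6.

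The summed RPKM of the 9 genes was 660, 803 and 718 in WT and 243, 294 and 279 in CREBH-KO. Fads2 made up 23.9% to 32.2% of that sum in WT and 8.09% to 10.9% in CREBH-KO. The share of Elovl2 was 20.2% to 21.9% in WT and 16% to 19.4% in CREBH-KO, and that of Elovl5 20.5% to 21.3% and 19.2% to 25.2%. Elovl3 took 6.44% to 15% of the sum in WT and 11.9% to 29.3% in CREBH-KO. These are shares of transcript, not of enzyme activity.

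**Figure D4:**
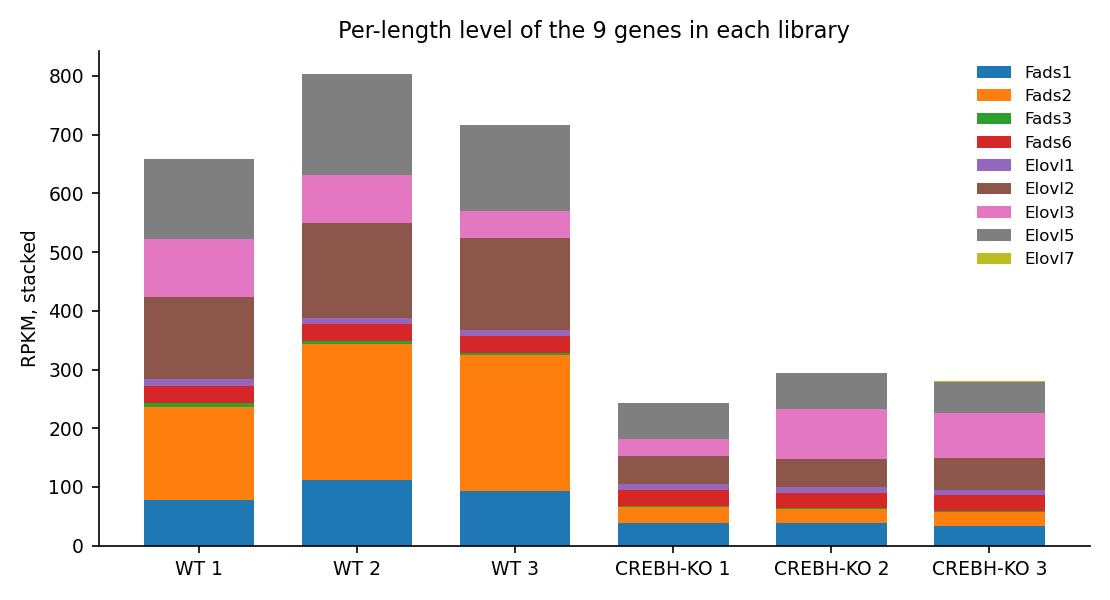
Stacked per-length levels (RPKM) of the 9 genes, with 1 bar per library and 1 colour per gene. The WT bars reach 660 to 803 and the CREBH-KO bars 243 to 294, and the Fads2 segment shrinks most.

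Fads1, Fads2 and Fads3 lie side by side on chromosome 19, so the genes around them were examined. Over all tested genes, edgeR called 10.4% changed. Of 24 other annotated genes that start within 200 kb of the 3, 8 were tested and none was called changed by edgeR. They include Tmem258, a small membrane protein gene that starts 7137 bases from the nearest of the 3, with 22 ± 1.26 CPM in WT and 23.2 ± 0.0427 CPM in CREBH-KO (SD, n = 3; log2 fold change 0.07 ± 0.09 SE, edgeR adjusted p = 0.645). Closest to the threshold were Fth1, the ferritin heavy chain gene (-0.36 ± 0.10 SE, edgeR adjusted p = 0.0549), and Myrf, a transcription factor gene (0.40 ± 0.12, edgeR adjusted p = 0.0600), with opposite signs. Both were chosen for mention after their values were seen, and neither overlapped between genotypes. Incenp, Rab3il1, Syt7, Dagla and AC132253.4 had means of at most 2.81 CPM in WT and 2.72 CPM in CREBH-KO, with SEs of 0.24 to 0.61. Moderate changes in these genes could therefore be missed, and 8 genes are too few to be set apart from the share over all genes.

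For each member that fell, the genes with the most similar profile were sought among 12564 others with at least 1 CPM. The measure was the root mean square difference of mean-centred log2 CPM over the 6 libraries, in which the genotype difference weighs most. Fads1 and Elovl5 were each other's nearest gene, 0.0586 apart on the log2 scale, followed for both by Sel1l3 and then by Daglb for Fads1 and Cyp26a1 for Elovl5. Elovl2 was nearest to Sel1l3, Wipf3 and Tram2 (0.144 to 0.156). The nearest genes to Fads2 were Aqp4 (0.210), Creb3l3 itself (0.213) and Olig1 (0.281), all with falls of similar size. Elovl2, Elovl5 and Fads1, which fell less, were 0.717 to 0.859 away and ranked 68, 108 and 113 among the 12564 genes. Fads3 was nearest to Trim7, Cyp2c50, which belongs to a family with near-identical copies, and Adgrg2 (0.125 to 0.207).

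The other enzymes that a round of desaturation or elongation needs moved less. For this list and those that follow, the share of all tested genes called was 10.4%, with 6.46% lower and 3.91% higher. A single call in a list of 4 to 6 tested genes cannot be set apart from that share. Of 6 partners of the elongation cycle, Hsd17b12, the ketoacyl-CoA reductase of the second step, had a mean of 128 ± 17 CPM in WT and fell to 86.1 ± 5.89 CPM without CREBH (SD, n = 3). Its log2 fold change was -0.58 ± 0.11 (SE), with an edgeR adjusted p of 0.0109. The other 5, among them the enoyl reductase Tecr (-0.23 ± 0.09, edgeR adjusted p = 0.125), did not pass. Desaturases draw electrons from cytochrome b5. Of 5 tested genes of that supply, Cyb5a (-0.52) and Cyb5r3, the reductase (-0.65), fell, with edgeR adjusted p = 0.00723 and 0.00704. The median log2 fold change was -0.09 over the elongation partners and -0.18 over the electron donors, against 0.02 over all genes. These 3 calls ended when CREBH-KO 2 and 3 were both left out.

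Among desaturases and elongases of other pathways, 2 of 7 tested genes fell: Scd1, which makes monounsaturated fatty acids, and Elovl6, which lengthens saturated ones. Scd1 was at 4836, 8123 and 4435 CPM in WT and at 3414, 2070 and 1797 CPM in CREBH-KO (log2 fold change -1.26 ± 0.28 SE, edgeR adjusted p = 0.0243). Elovl6 fell by 0.61 ± 0.13 on the log2 scale (edgeR adjusted p = 0.0220). Elovl4, the elongase of retina and skin for ultra-long chains, had 0 counts in every library. Scd1 lost its call in edgeR's robust fit and when any of WT 2, CREBH-KO 2 and CREBH-KO 3 was left out (edgeR adjusted p up to 0.0955), and Elovl6 when any of WT 2, CREBH-KO 1 and CREBH-KO 3 was (up to 0.0850). The list's median was -0.61.

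Peroxisomal chain shortening, the last stage of docosahexaenoic acid synthesis, went both ways. Of 11 genes, 3 fell, 1 rose and 7 did not pass, where 10.4% of all tested genes were called. The thiolase and sterol carrier gene Scp2 fell by 0.84 ± 0.09 on the log2 scale (SE, edgeR adjusted p = 9.15e-04) and the dienoyl-CoA reductase Decr2 by 0.81 ± 0.10 (0.00146). Ehhadh, the bifunctional hydratase and dehydrogenase, was at 943, 757 and 1007 CPM in WT and rose to 2690, 4368 and 2723 CPM in CREBH-KO (1.85 ± 0.20, edgeR adjusted p = 8.80e-04). The median was -0.14. The call of Decr2 ended when CREBH-KO 2 and 3 were both left out.

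Genes that activate fatty acids or place them in membrane lipids also changed in part. Of 5 tested acyl-CoA synthetase genes, Slc27a2, for very long chains, fell (-0.42 ± 0.09 SE, edgeR adjusted p = 0.0184); the median was 0.21. Of 10 tested lysophospholipid acyltransferase genes, 3 fell and none rose, with a median of -0.02. Lpgat1 fell from 269 ± 21.6 to 129 ± 3.43 CPM (SD, n = 3; -1.06 ± 0.08 SE, edgeR adjusted p = 1.61e-04). Lpcat3, which places polyunsaturated chains in phosphatidylcholine, and Agpat3 fell by 0.30 and 0.38 on the log2 scale (edgeR adjusted p = 0.0404 and 0.0385). Both calls were lost with library size alone or upper-quartile scaling and without any 1 library except WT 1. Of 4 tested ceramide synthase genes, only Cers2 passed, lower by 0.43 ± 0.08 (edgeR adjusted p = 0.00847, and 0.0517 without WT 2). For Slc27a2 the edgeR adjusted p rose as far as 0.0897, and its call was lost, when WT 2 or either CREBH-KO 2 or CREBH-KO 3 was left out.

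**Figure D5:**
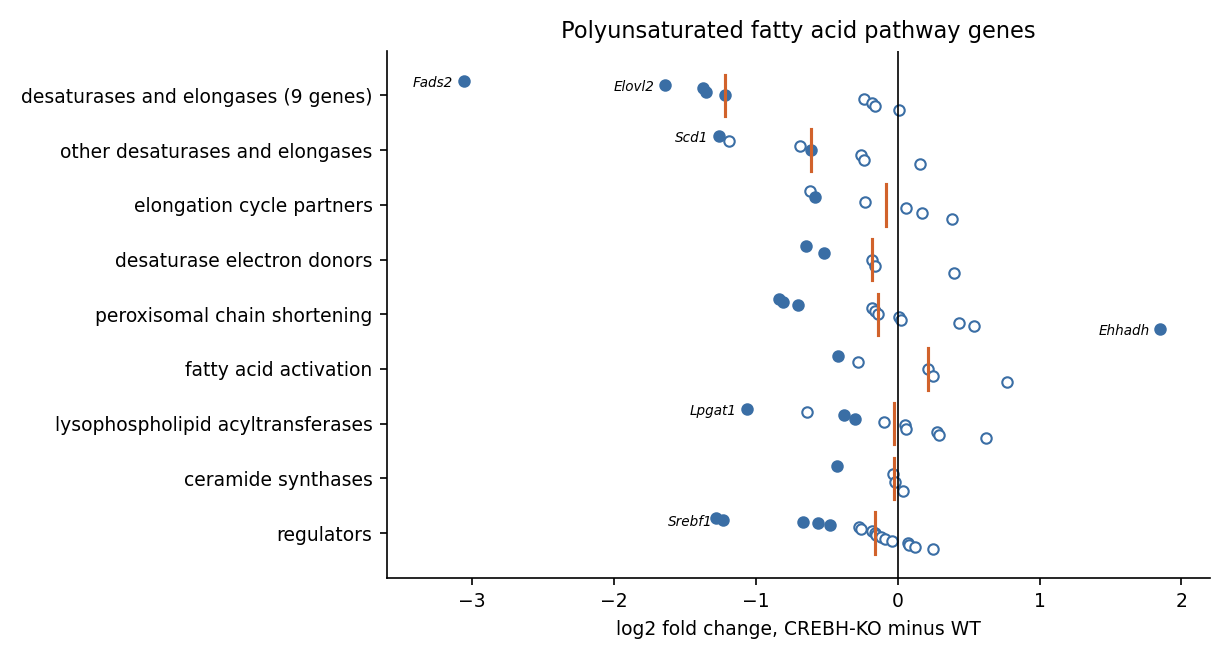
Log2 fold change (CREBH-KO minus WT) of the 9 genes and of every tested gene in the lists of other desaturases, partner and peroxisomal enzymes, acyl transfer and regulators (the clock and sex-biased lists are not drawn), with 1 circle per gene (filled where the adjusted p was under 0.05) and an orange line at each list's median. The members' median of -1.22 is the lowest of the lists shown, and Ehhadh at 1.85 is the single filled circle drawn to the right of 0.

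Of 17 regulators reported for these genes, 5 fell, none rose and 12 did not pass, with a median of -0.16. Over all tested genes, 6.46% were called lower and 3.91% higher. Srebf1 was at 63.6, 89.9 and 98.7 CPM in WT and at 37.5, 34.6 and 35.1 CPM in CREBH-KO. Its log2 fold change was -1.23 ± 0.15 (SE, edgeR adjusted p = 0.00147). Ppara was at 102, 137 and 151 CPM in WT and 55.1, 47.2 and 58.7 CPM in CREBH-KO (-1.28 ± 0.14 SE, edgeR adjusted p = 0.00114). Cebpa, a hepatocyte transcription factor, fell by 0.67, Insig2, which retains SREBPs in the endoplasmic reticulum, by 0.56, and Rxra, the partner of PPAR-alpha, by 0.48 on the log2 scale (edgeR adjusted p = 0.00390, 0.0212 and 0.00849). Leaving out WT 2 ended the Rxra call (edgeR adjusted p = 0.0513), and leaving out WT 2, CREBH-KO 2 or CREBH-KO 3 that of Insig2 (up to 0.0901). With CREBH-KO 2 and 3 both left out, the calls of Srebf1, Cebpa, Rxra and Insig2 all ended, and that of Ppara stayed. The liver X receptor genes Nr1h3 (0.12 ± 0.07) and Nr1h2 (0.07 ± 0.08) and the ChREBP gene Mlxipl (-0.15 ± 0.12) did not pass (edgeR adjusted p of 0.358, 0.658 and 0.482). Transcript levels do not show how much SREBP-1 or PPAR-alpha protein was active, and their part in the falls of the members was not tested.

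Most markers of other liver cells did not pass the test, though some differed by as much as members did. Of 8 Kupffer cell, 8 endothelial and 6 tested lymphocyte markers none passed. The summed Kupffer markers were at 63.9 to 141 CPM in WT and 71.1 to 88.7 CPM in CREBH-KO, the endothelial ones at 134 to 177 and 145 to 156 CPM, and the lymphocyte ones at 1.71 to 5.85 and 3.67 to 4.86 CPM. Lyve1, an endothelial marker named after its values were seen, was at 2.90, 10.3 and 15.1 CPM in WT and at 27.1, 19.3 and 20 CPM in CREBH-KO, with no overlap (log2 fold change 1.24 ± 0.44 SE, edgeR adjusted p = 0.114). The endothelial list's median was -0.16. Stab2 (-0.25), Clec4g (-0.34), Kdr (-0.25), Cdh5 (-0.08) and Dnase1l3 (-0.50) were lower, and Pecam1 (0.30) and Vwf (0.15) higher. Of 8 stellate cell markers Dcn rose (0.56, edgeR adjusted p = 0.00552), the list's median was 0.57, and the sum, 144 to 178 CPM in WT and 202 to 232 CPM in CREBH-KO, did not overlap. Dcn was the largest part of that sum, with means of 84.8 CPM in WT and 125 CPM in CREBH-KO. The other 7 did not pass: Lrat (-0.08) and Reln (0.08) hardly moved, and Col1a1, Col1a2, Col3a1, Pdgfrb and Des were higher (0.43 to 0.70). Of 6 tested cholangiocyte markers Sox9 rose (edgeR adjusted p = 0.0312; call lost without any 1 library except WT 3 and CREBH-KO 3), with sums of 38.2 to 82.2 and 43.3 to 73.3 CPM, while Epcam was lower without passing (-1.11 ± 0.39 SE, edgeR adjusted p = 0.107). The adipocyte markers Lep, Retn and Ucp1 had 0 counts in every library, and the sum of the 7 adipocyte markers was 4.84 to 6.04 CPM in WT and 6.91 to 8.02 CPM in CREBH-KO. Nearly all of that sum was Fabp4, which other cells also express (4.71 to 6.01 and 6.80 to 7.96 CPM); Adipoq, Plin1 and Cidea were at no more than 0.101 CPM in any library. The part of the higher stellate cell sum in the members' values was not tested.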

How the data were processed

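The authors deposited 1 table of raw read counts per gene for each of 6 libraries; HTSeq is named in the titles, per the labels. The sources used here name no aligner, build or strand setting. All 55536 identifiers matched GENCODE M21 (GRCm38), which gave symbols, positions and exon lengths; the build was inferred from this. HTSeq's lines for reads given to no gene (27.4% to 31.2% of listed reads) were left out. With strand unknown, antisense reads cannot be told apart: of exonic bases, 1.94% of Elovl1 overlap Cdc20 and 0.506% of Elovl3 overlap Pitx3 on the opposite strand, and the other 7 members overlap no exon.

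The filter was edgeR's filterByExpr with a minimum count of 10 and a minimum total of 15; 15589 genes passed. edgeR 4.0.16 in R 4.3.3 compared the genotypes over the whole table by its quasi-likelihood test, with replicate numbers given in accession order as names only, TMM factors of 0.967 to 1.05 and no covariate. SEs were obtained as |log2 fold change| over the root of F, and intervals from the t distribution. CPM and RPKM use effective library sizes. Log2 ratios added 0.5 counts. No 2 libraries of a group were as alike as sampling noise allows (lowest chi-square per gene 18.8). The test was checked on simulated counts. DESeq2 1.42.0 and limma 3.58.1 (voom) were alternatives.

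Members and lists were chosen with earlier results of these data known. Named were all members, Creb3l3, up to 4 called genes per pathway list with the largest change, and called neighbours of the Fads genes. The 3 genes nearest in profile to each called member were named too. Uncalled genes other than members, the called genes Rxra, Cry2 and Npas2, and the markers were named after their values were seen. Some genes of the peroxisomal list are counted but not reported singly here.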

Additional observations from a re-analysis of the deposited data

How the results depend on the processing

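Fads1, Fads2, Elovl2 and Elovl5 passed, lower, in all 15 alternative fits (other scaling, filters, tests, and libraries left out). The members called numbered 4 or 5 in each: Fads3 lost its call without CREBH-KO 2, without CREBH-KO 3 and without both (-0.89). With 1 library left out, log2 fold changes ranged from -1.43 to -0.96 for Fads3, from -0.09 to 0.10 for Elovl1, from -0.51 to 0.11 for Elovl3 and from -0.49 to 0.18 for Elovl7. Elovl1 was at -0.01 with no filter, and Elovl7 at 0.06 without CREBH-KO 2 and 3; Elovl7 was not kept by the stricter filter. Over all genes, 1616 were called, 2456 with no filter, 228 without CREBH-KO 2 and 3, and 658 to 1806 with 1 library left out (658 without WT 2, 778 without CREBH-KO 3, 838 without CREBH-KO 2). Higher genes made up 37.7% of calls, and 52.8% with library size alone. In the 11 pathway lists 39 genes were called, 12 without CREBH-KO 2 and 3, and 25 (without WT 2) to 44 with 1 library left out. The cause was not tested. Adding 0 or 2 counts in place of 0.5 left both ratio differences within 1 SD. No paired analysis was possible because the labels give no replicate numbers; those used here follow accession order and pair nothing.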
